A study of Mus musculus with 6 samples.

Results

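Checkpoint receptors are surface proteins that dampen or tune T cells, and the genes described here are Pdcd1, Lag3, Ctla4, Havcr2, Tigit and Cd160, the costimulatory receptor gene Icos and the transcription factor genes Tox and Eomes. These 9 of the 56980 genes listed in the deposited tables were found by their symbols, each as 1 row, and were followed in single-nucleus RNA sequencing of white fat from female C57BL/6J mice. The 6 libraries fall into 3 groups of 2, namely subcutaneous fat of the inguinal pad (SAT) from mice of 2 or of 24 months and visceral fat of the gonadal pad (VAT) from mice of 24 months, with no treatment or transgene named for any of them. The labels give 24 months for the older mice while the design text gives a slightly later age, and the labels' age is used here. By the study's text 2 mice were used per age, so both depots at 24 months may share mice, but no source says which libraries would pair. The labels name adipocytes as the cell type of every library, whereas the nuclei held immune, stromal, epithelial and adipocyte classes alike.

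T cells are switched on through their antigen receptor together with costimulation, for which CD28 and ICOS are receptors, and are restrained by inhibitory receptors. PD-1, the product of Pdcd1, binds PD-L1 and PD-L2. CTLA-4 competes with CD28 for CD80 and CD86 and is abundant in regulatory T cells. TIGIT binds CD155, the product of Pvr, and competes with CD226. LAG-3 binds MHC class II, TIM-3 (Havcr2) binds among others galectin-9, and CD160 binds HVEM (Tnfrsf14). Lasting antigen exposure leaves T cells with several of these receptors at once, a state called exhaustion, in which the factor TOX takes part, while Eomes is a T-box factor of CD8 T cells and NK cells. In fat, regulatory T cells and innate-like gamma-delta T cells are residents known for effects on inflammation and metabolism.

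After filtering, 27074 of 50859 barcodes were kept, with a median of 1380 to 1878 UMIs (unique molecular identifiers, each a counted RNA molecule) per nucleus and library, and any pair of libraries shared at most 0.482% of the barcodes of the smaller one. The median mitochondrial share was 1.72% and 0.918% in SAT of 2 months, 3.49% and 2.91% in SAT of 24 months and 0.776% and 5.07% in VAT. Its part in differences between groups was not tested. Clusters made without the 9 genes gave 5223 T cell-like nuclei, of which the libraries held 1454 and 2465 (SAT at 2 months), 524 and 205 (SAT at 24 months) and 12 and 563 (VAT at 24 months). The mean log2 fold of 12 T cell marker genes was 2.96 to 4.32 in the 13 T clusters. With 12 T nuclei and 16255 UMIs in them, VAT replicate 1 stood apart, and a gene with 0 UMIs there may still lie at up to 185 CPM (UMIs of a gene per 1000000 UMIs of the nuclei in question, here for a floor of 3 counts). A list of 10 lymph node genes was at 784 and 685 CPM over all nuclei of SAT at 2 months, 617 and 207 at 24 months, and 63.9 and 262 in VAT. These sums do not measure lymph node tissue alone, as Ltf was at 831 CPM in epithelial and Ccl21a at 641 in endothelial nuclei. All class names mean "-like" and rest on RNA alone, and Scrublet called only 0.133% of nuclei doublets, so that doublets have to be taken as not removed. Libraries of a group are not stated to be separate experiments, so p-values measure only the spread between these libraries.

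On GRCm39 with the GENCODE M39 annotation all 9 are protein-coding genes. Ctla4 (chr1:60926159-60954991) and Icos (chr1:61017086-61039479) are neighbours on the forward strand, and Pdcd1 lies on the same chromosome (chr1:93966027-93980312, reverse strand). The others are Tox (chr4:6686353-6991644, reverse), Lag3 (chr6:124881320-124888765, reverse), Havcr2 (chr11:46345673-46374149, forward), Tigit (chr16:43469100-43484509, reverse), Cd160 (chr3:96706079-96736667, reverse) and Eomes (chr9:118307280-118315200, forward). Tox, Ctla4, Cd160 and Eomes each overlap a gene on the opposite strand, for Cd160 the start of Pdzk1 and a long non-coding RNA and for the others long non-coding RNAs alone. Tox, Ctla4 and Icos also hold a short gene model on their own strand (Gm68786, Rpl18-ps1 and Gm37039). Whether the counting used strand is not given in the sources used here, and without it reads of opposite-strand pairs cannot be told apart, nor can those of same-strand pairs with it.

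With the nuclei of the 6 libraries summed, which weights SAT of 2 months most, Ctla4, Tigit and Pdcd1 were highest in the regulatory T nuclei, which were named from Foxp3, Il2ra and similar genes and not from these members. Ctla4 was at 822 CPM there (95% Poisson interval 767 to 880, counting error only), against 280 in cycling T nuclei, 67.8 in conventional CD4, 45.5 in CD8 and 14.4 in gamma-delta or type 17 T nuclei, a subset that holds innate-like gamma-delta cells and others with type 17 genes. By library the regulatory level of Ctla4 was 804 and 784 CPM in SAT of 2 months, 1316 and 710 in SAT at 24 months and 768 in VAT replicate 2. Each of these 5 libraries had more Ctla4 in regulatory than in conventional CD4 nuclei, which held 0 to 105 CPM. Cycling nuclei held less than regulatory ones in 4 of these libraries (155 to 386 CPM) and more in SAT 24 months replicate 2 (3069 CPM in 8 nuclei). Tigit, sparse everywhere with 100 UMIs in all nuclei, was at 24.7 CPM (16.0 to 36.5) in regulatory and 19.1 (11.3 to 30.2) in cycling T nuclei, 2 intervals that overlap. Pdcd1 was at 72.2 CPM (56.6 to 90.8) in regulatory, 53.1 (39.4 to 69.9) in cycling, 23.1 in conventional CD4 and 5.69 in CD8 T nuclei. This order did not hold in every library. In SAT of 2 months Pdcd1 was at 63.3 and 89.9 CPM in regulatory against 23.2 and 76.9 in cycling nuclei. It was at 67.5 against 92.5 in VAT replicate 2 and, on 1 UMI against 2, at 14.5 against 32.2 in SAT 24 months replicate 1. In SAT 24 months replicate 2 CD8 nuclei held more than regulatory ones (125 against 44.4), on 3 UMIs against 1.

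Over 18 classes and T subsets the levels of Ctla4 and Tigit had a Pearson r of 0.94 on the log2(CPM + 10) scale, a description over summed nuclei of the same libraries. Of the alike genes named here and below, Foxp3, Izumo1r, Skap1 and Nkg7 were also markers that named these classes, so their likeness is partly built in. The genes most like Ctla4 were Foxp3, the factor that defines regulatory T cells (0.95), Izumo1r (0.95) and Tigit (0.94). Those most like Tigit were Ctla4 (0.94), Foxp3 (0.92) and A1cf (0.91), and those most like Pdcd1 were the cytokine gene Il21 (0.96), Tnfsf11, the gene of RANKL (0.92), and Ctla4 (0.91). The 250 bases before the start of both genes of this regulatory pair are shown to compare what sequence they hold, from RefSeq on GRCm38.p6 (chr1:60908775-60909024, forward strand and chr16:43664185-43664434, reverse strand), 5′ to 3′ along the gene, with capitals for matches to 1 of 4 motifs searched on both strands.
Ctla4: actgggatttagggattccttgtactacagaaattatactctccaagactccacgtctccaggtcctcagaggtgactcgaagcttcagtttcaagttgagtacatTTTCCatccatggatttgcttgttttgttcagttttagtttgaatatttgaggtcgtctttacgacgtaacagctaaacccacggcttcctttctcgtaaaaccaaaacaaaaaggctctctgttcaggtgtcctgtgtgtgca
Tigit: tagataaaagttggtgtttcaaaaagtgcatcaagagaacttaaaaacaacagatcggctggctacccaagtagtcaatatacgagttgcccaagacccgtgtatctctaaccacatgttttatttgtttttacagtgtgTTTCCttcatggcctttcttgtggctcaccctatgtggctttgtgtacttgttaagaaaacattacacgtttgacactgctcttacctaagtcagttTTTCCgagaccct
The motifs were the NFAT core GGAAA, the AP-1 site TGANTCA, the T-box core GGTGTGA and the Nr4a site AAGGTCA, which 55.6%, 6.75%, 3.33% and 4.08% of 32851 promoter windows of this length hold. Ctla4 had 1 match and Tigit had 2, all to the NFAT core, as had Pdcd1 with 2. RefSeq windows matched 6 of the 9 genes, not Tox, Lag3 and Icos.

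**Figure D1:**
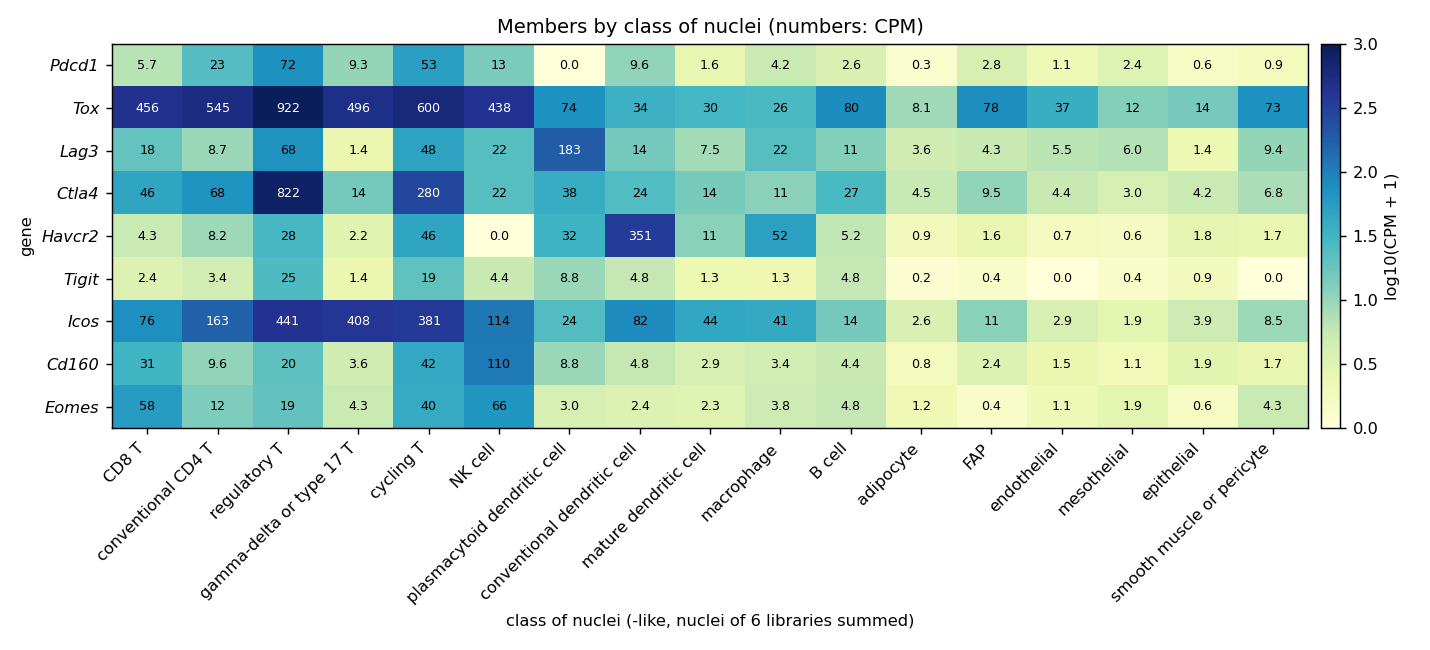
Level of each member (rows) in 17 classes of nuclei (columns), with the nuclei of the 6 libraries summed. Colour is log10(CPM + 1) and the printed numbers are CPM. In these sums Ctla4, Tigit, Pdcd1 and Tox peak in regulatory T nuclei, Lag3 in plasmacytoid and Havcr2 in conventional dendritic nuclei, an order that single libraries break for all but Havcr2.

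Icos was shared by more subsets. Over all libraries it was at 441 CPM (401 to 484) in regulatory, 408 (375 to 443) in gamma-delta or type 17 and 381 (343 to 422) in cycling T nuclei, whose intervals overlap, then at 163 in conventional CD4 and 75.9 in CD8 T nuclei. By library the first of these subsets differed, in the same order 434, 222 and 410 CPM in SAT 2 months replicate 1 and 433, 488 and 519 in replicate 2. In SAT 24 months replicate 1 they held 781, 428 and 322 CPM, and in VAT replicate 2 270, 452 and 111. Regulatory and gamma-delta or type 17 nuclei held 621 and 420 CPM in SAT 24 months replicate 2. Within the gamma-delta or type 17 subset a cluster with Il23r and Zbtb16 among its leading genes held 646 CPM and those led by the scavenger receptor genes Scart2 and Scart1 held 187 and 183. Within conventional CD4 nuclei the cluster led by Trat1, Nebl and Itgb1 held 345 CPM, against 103 and 105 in both clusters led by Igfbp4, Lef1 or Tcf7, which are genes of naive cells. The genes most like Icos over classes were Rinl (0.94), Socs1 and AI504432 (both 0.93).

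Tox was broad among T and NK nuclei, from 438 CPM in NK to 922 (863 to 983) in regulatory nuclei over all libraries. Cycling nuclei held more than regulatory ones in VAT replicate 2 (1067 against 928). They also did in SAT 24 months replicate 2 (1668 against 1554), where 19 of 25 cycling UMIs were in 1 nucleus. Without the top nucleus of each subset that order turned (484 against 1326). CD8, gamma-delta or type 17 and conventional CD4 nuclei held 456, 496 and 545 CPM, and in every library with at least 10 nuclei of a T subset its level was 239 CPM or more. In CD8 nuclei the cluster with the most Eomes held 447 CPM of Tox, between the others (494 and 417). Tox was at 80.3 CPM (70.0 to 91.7) in B nuclei, the highest of the named classes outside T and NK nuclei. Its most alike genes were Zap70 and Skap1, which act in antigen receptor signalling, and Thy1, a surface marker of T cells (all 0.96).

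Over all libraries Eomes and Cd160 were highest in NK nuclei, at 65.8 CPM (36.8 to 108, 15 UMIs) and 110 CPM (70.9 to 162, 25 UMIs). In CD8 nuclei Eomes was at 57.8 CPM (48.0 to 69.1) and Cd160 at 30.8 (23.8 to 39.3), so that the intervals of NK and CD8 nuclei overlapped for Eomes and not for Cd160. By library Cd160 in NK nuclei was at 144 and 113 CPM in SAT of 2 months, 0 and 202 in SAT of 24 months (13 and 11 nuclei) and 0 in the 17 NK nuclei of VAT. Eomes in NK nuclei was at 48.1 and 90.5 CPM in SAT of 2 months, above CD8 nuclei (26.9 and 43.2), but at 97.0 and 0 in SAT of 24 months and 50.2 in VAT replicate 2, below CD8 nuclei (153, 166 and 279). Among 3 CD8 clusters the one led by Ifngas1, Samd3, Ly6c2 and Ccl5 held 118 CPM of Eomes and 50.3 of Cd160, and the other two 36.0 and 47.1 of Eomes. Eomes and Cd160 were correlated at 0.93 over the classes. They shared Nkg7, a gene of cytotoxic granules and a marker that named CD8 nuclei, as most alike gene (0.99 for Eomes, 0.95 for Cd160). Next were Ifngas1 (0.95) for Eomes and Fasl (0.94) for Cd160. Their RefSeq windows are shown for the same reason as above (chr9:118477939-118478188, forward strand; for Cd160, which has 2 annotated starts, chr3:96814522-96814771, reverse strand and chr3:96829352-96829601, reverse strand).
Eomes: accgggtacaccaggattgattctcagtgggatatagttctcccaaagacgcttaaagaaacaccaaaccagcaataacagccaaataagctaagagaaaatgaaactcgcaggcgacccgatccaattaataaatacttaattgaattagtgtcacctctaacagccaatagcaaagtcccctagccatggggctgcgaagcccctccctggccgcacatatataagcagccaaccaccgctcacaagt
Cd160 window 1: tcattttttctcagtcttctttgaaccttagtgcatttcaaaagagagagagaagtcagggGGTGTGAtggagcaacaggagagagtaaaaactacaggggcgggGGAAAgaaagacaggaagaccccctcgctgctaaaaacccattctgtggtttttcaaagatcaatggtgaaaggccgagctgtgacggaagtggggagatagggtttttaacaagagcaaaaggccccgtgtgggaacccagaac
Cd160 window 2: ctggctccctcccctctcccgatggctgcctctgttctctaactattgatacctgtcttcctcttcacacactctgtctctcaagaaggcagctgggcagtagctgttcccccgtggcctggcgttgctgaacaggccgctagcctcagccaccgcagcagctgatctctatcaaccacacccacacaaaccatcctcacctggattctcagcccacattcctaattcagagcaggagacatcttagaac
The first Cd160 window held 1 T-box core, the motif family that Eomes protein binds, and 1 NFAT core, while the windows of Eomes and of the second Cd160 start held no match to these letters.

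Outside T and NK nuclei lay 66.3% of the Lag3 and 78.7% of the Havcr2 UMIs, against 22.8% to 40.0% for the other 7 members. Such shares also depend on the number of nuclei per class. The 7188 adipocyte nuclei held 65 Lag3 UMIs at 3.62 CPM, and the 207 plasmacytoid dendritic nuclei held 62. T nuclei held 173 Lag3 UMIs at 21.6 CPM. Over all libraries Lag3 was highest in plasmacytoid dendritic nuclei, at 183 CPM (140 to 234), and by library at 343 and 152 CPM in SAT of 2 months, 97.2 and 110 in SAT at 24 months (2 UMIs each) and 94.2 in VAT replicate 2. Regulatory T nuclei were at 68.2 CPM (53.1 to 86.4), with less than plasmacytoid nuclei in SAT of 2 months (69.3 and 25.7) and more in the 3 libraries of 24 months named here (130, 133 and 186), and cycling T nuclei at 47.7 (34.8 to 63.9). Without the top nucleus of each library, regulatory nuclei held 44.7 and 47.9 CPM in SAT at 24 months and 153 in VAT replicate 2. The order in SAT at 24 months thus rested on few UMIs (9 and 3 in regulatory nuclei). Havcr2 was at 351 CPM (296 to 413) in conventional dendritic nuclei, with every library between 149 and 507 CPM, and at 51.6 (42.8 to 61.6) in macrophages. In T nuclei it was at 13 CPM, highest over all libraries in the cycling subset (45.6). Regulatory nuclei held more than cycling ones in SAT 2 months replicate 2 (25.7 against 12.8) and SAT 24 months replicate 1 (86.7 against 80.4). Cycling nuclei held more in the other libraries apart from VAT replicate 1. The genes most like Havcr2 were the inflammasome gene Nlrp1b (0.93), Vps9d1 (0.89) and Rasgrp4 (0.88), and those most like Lag3 were Ptprh, Tmprss3 (both 0.89) and Wee2 (0.87).

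Adipocyte nuclei should lack these genes, and the source of their UMIs there, such as free RNA or doublets, was not tested. Over all libraries the 9 members were at 0.223 to 8.09 CPM there, with Tox, Ctla4 and Lag3 (3.62) the highest. Most of these nuclei came from SAT 24 months replicate 2 (2190) and VAT replicate 1 (2767), which held fewer T nuclei (205 and 12) than the other 4 libraries. By library Ctla4 in adipocyte nuclei was at 9.67 and 21.6 CPM in SAT of 2 months, 9.69 and 3.04 in SAT of 24 months and 1.42 and 4.70 in VAT. In SAT of 2 months Tox was at 22.0 and 28.4, Icos at 6.99 and 13.6 and Lag3 at 8.06 and 11.4 CPM in adipocyte nuclei. The shares of nuclei that follow are pooled over libraries. After thinning each nucleus to 1000 UMIs, 0.551% of adipocyte nuclei had a Ctla4 UMI (0.988% before, median depth 1987 UMIs) against 40.4% of regulatory nuclei (48.1% before, median depth 1372). For Tigit the shares were 0.0226% and 1.84% (0.0556% and 2.90% before), and for Pdcd1 0.0331% and 5.08% (0.0696% and 6.87% before). In cycling T nuclei the thinned shares were 16.0% for Ctla4, 1.97% for Tigit and 4.75% for Pdcd1. Of the 6 inhibitory receptor genes, at least 2 had a UMI in 10.4% of regulatory and 15.1% of cycling T nuclei, 1.14% of conventional CD4, 0.786% of CD8 and 0.118% of gamma-delta or type 17 nuclei, and in 1 of 7188 adipocyte nuclei. Cycling nuclei were deeper than the others (median 2062 UMIs), which raises such shares, and were not thinned for this count. At least 3 had a UMI in 10 regulatory, 11 cycling, 2 conventional CD4 and 1 CD8 nuclei.

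The first comparison asks whether the members differ with age in SAT. Summed over all T nuclei, Icos rose with age, while the other 8 members did not pass the test. Its level was 198 and 228 CPM at the younger age and 403 and 404 at the older, so that the groups did not overlap (357 in place of 404 without 1 nucleus that held 15 of its UMIs). The log2 fold was 0.97 ± 0.19 (SE, n = 2 libraries per age, edgeR quasi-likelihood test, adjusted p = 0.00198). This is 1 of 9 members tested, where 11.7% of 12365 genes were called (7.16% higher, 4.55% lower), so the count is near the background. With only nuclei over 1500 UMIs the log2 fold was 0.61 and the call was lost (edgeR, adjusted p = 0.0636), and it stayed between 0.87 and 1.10 when any 1 library was left out.

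Tox was at 470 and 579 CPM against 615 and 714, again without overlap, with a log2 fold of 0.38 ± 0.19 (edgeR, adjusted p = 0.212). Ctla4 was at 162 and 169 CPM against 165 and 213, where 31 of the 66 UMIs in the library at 213 came from a single cycling nucleus, without which it was 113. Among the low members the ages overlapped for Pdcd1, Cd160, Eomes and Tigit and did not for Lag3 and Havcr2. Lack of overlap, here and elsewhere, only describes 2 against 2 libraries, and its share over all genes was not counted. Pdcd1 was at 20.8 and 28.2 CPM against 9.34 and 32.3, Cd160 at 28.8 and 19.4 against 3.50 and 32.3, and Eomes at 14 and 23.3 against 12.8 and 19.4. Lag3 was at 13.2 and 11.7 CPM against 17.5 and 16.1, and at 11.2 and 10.5 against 10.5 and 9.73 without the nucleus of each library that held the most UMIs. Havcr2 was at 14.4 and 6.55 against 18.7 and 16.1, and at 12 and 5.70 against 14.1 and 9.72 without such nuclei. Both genes then overlapped, but such a removal lowers most the libraries with few UMIs (5 of each gene in SAT 24 months replicate 2). Tigit was at 3.60 and 5.12 against 8.17 and 3.23. The adjusted p of these 6 was 0.333 (Havcr2) or more with edgeR. Without SAT 24 months replicate 2, Cd160 was called lower (log2 -2.64, edgeR, adjusted p = 0.0181).

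**Figure D2:**
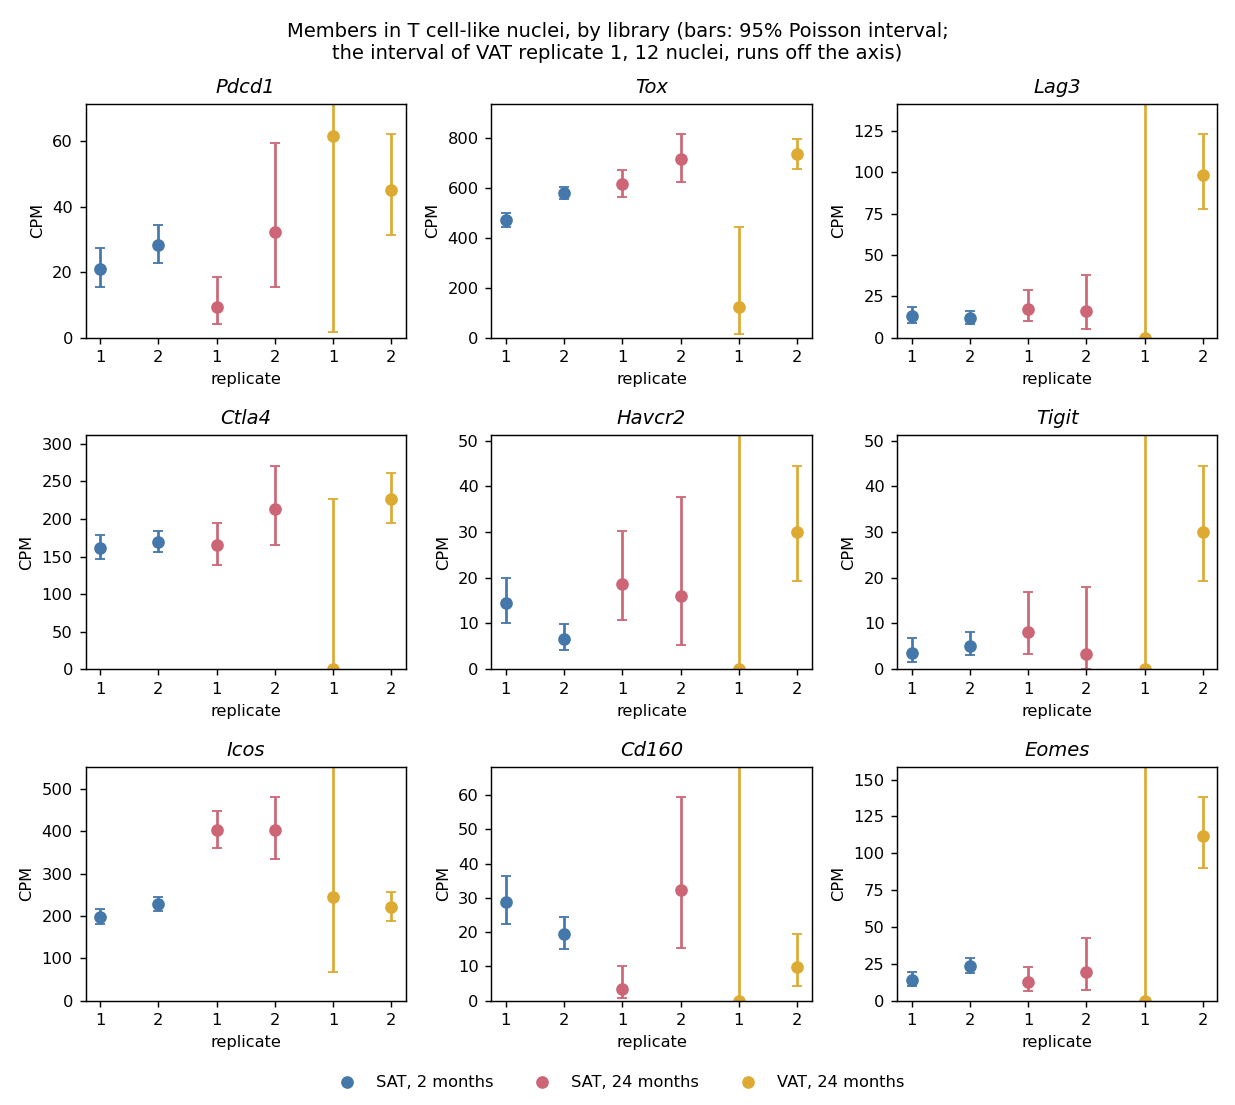
Each member in T cell-like nuclei, 1 panel per gene, as CPM (y) per library (x). Points are libraries and bars are 95% Poisson intervals of the count. Icos separates SAT at 24 months (403 and 404) from SAT at 2 months, and Lag3 and Eomes are higher in VAT replicate 2 (98.5 and 112) than in the 4 SAT libraries, while VAT replicate 1 has 0 UMIs of both under a wide interval.

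The mix of T subsets moved along with age. Gamma-delta or type 17 nuclei made up 8.18% and 6.17% of T nuclei at 2 months and 57.1% and 60.5% at 24 months, CD8 nuclei 31.6% and 36.5% against 8.02% and 9.27%, and conventional CD4 nuclei 33.4% and 31.4% against 17.4% and 15.1%. With 2 libraries against 2 an exact permutation test cannot give a p below 0.33 (two-sided), and no test of shares was made. Regulatory nuclei were 13.6% and 12.6% against 8.59% and 6.83%. With CD8, conventional CD4, regulatory and gamma-delta or type 17 nuclei weighted equally in each library, Icos was at 209 and 294 CPM at 2 months and 426 and 331 at 24 months, closer than over all T nuclei. Weighted the same way, Lag3 was at 19.1 and 11.9 CPM against 45.3 and 54.1. Eomes was at 12.7 and 19.2 against 38.8 and 48.3, without overlap, while its sums over all T nuclei overlapped. The weighted values rest on few nuclei at 24 months, for CD8 on single nuclei as given below, and were not tested.

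**Figure D3:**
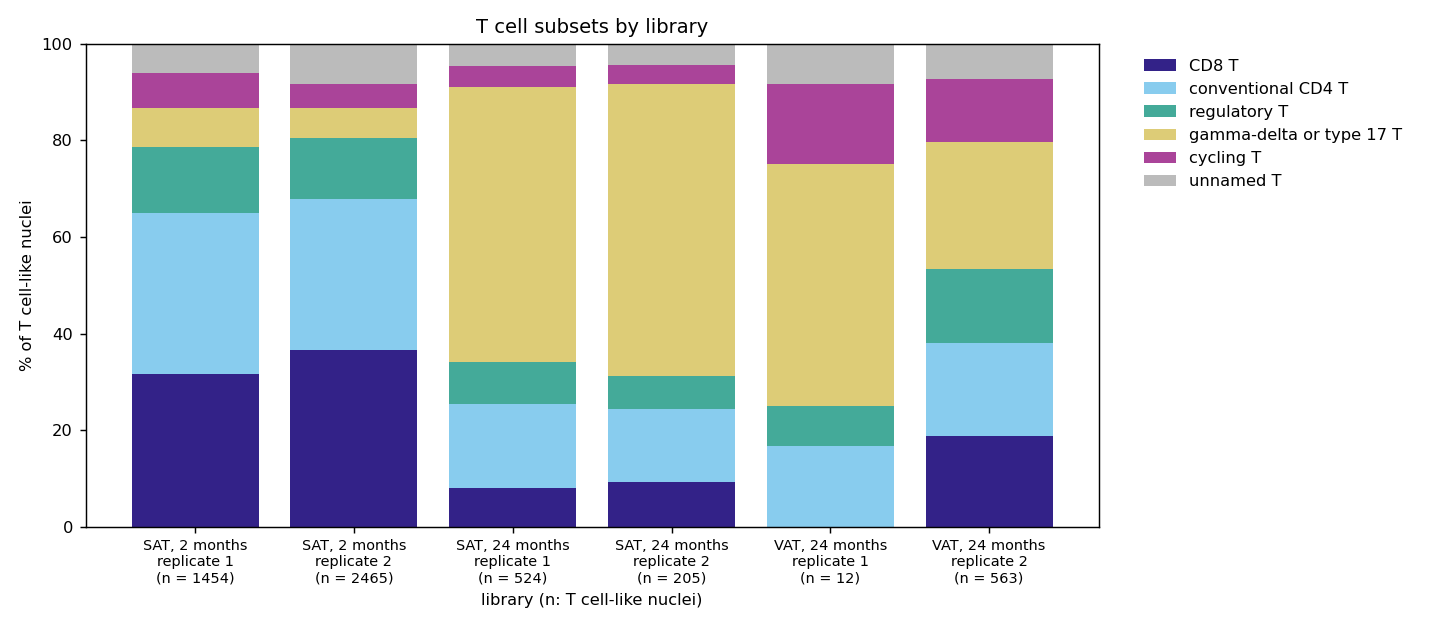
Share of each T subset among T cell-like nuclei (y, percent) for the 6 libraries (x, with the number of T nuclei). Gamma-delta or type 17 nuclei take 57.1% and 60.5% in SAT at 24 months and 8.18% and 6.17% at 2 months.

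Within CD8, conventional CD4, regulatory and gamma-delta or type 17 nuclei no member was called, and cycling nuclei were not tested. In conventional CD4 nuclei Icos was at 128 and 171 CPM against 290 and 240 (log2 0.81 ± 0.31, edgeR, adjusted p = 0.0650), and without SAT 24 months replicate 2 it was called (0.93, adjusted p = 0.0365). The clusters behind this class differed by age, as the one led by Trat1, Nebl and Itgb1 made up 20.2% and 16.1% of it at 2 months and 62.6% and 77.4% at 24 months. Within that cluster Icos was at 356 and 413 CPM in the younger and 292 and 252 in the older SAT, so that it was not higher there at 24 months. Of the 9 members 4 passed the filter on low counts there, beside 584 calls among 5161 genes (11.3%, with 5.66% in each direction). In gamma-delta or type 17 nuclei Icos was at 222 and 488 CPM against 428 and 420 (log2 0.27 ± 0.25, edgeR, adjusted p = 0.820), where 2 members passed the filter and 1.54% of 7122 genes were called (1.07% higher, 0.477% lower). With marker UMIs in place of clusters choosing the nuclei, the conventional CD4 value turned to -0.21 (edgeR, adjusted p = 0.848).

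CD8 and regulatory nuclei of SAT 24 months replicate 2 numbered 19 and 14, under the planned minimum of 20, so these comparisons were made with a minimum of 10 chosen after the data were seen. In CD8 nuclei 6 members passed the filter and 0.994% of 5431 genes were called (0.497% in each direction). Eomes was at 26.9 and 43.2 CPM against 153 and 166, without overlap, on 9 and 4 UMIs at 24 months, of which 3 in each library were in 1 nucleus (108 and 44.2 without it; log2 1.99 ± 0.63, edgeR, adjusted p = 0.0878). The cluster with the most Eomes made up 18.3% and 19.9% of CD8 nuclei at 2 months and 38.1% and 26.3% at 24 months, and within it Eomes was at 83.1 and 75.7 CPM against 262 and 449, on 7 and 3 UMIs in the older SAT. Lag3 was at 5.66 and 6.78 CPM, below its level in adipocyte nuclei of the same libraries, against 51.1 and 83.1, on 3 and 2 UMIs, of which 2 in each library were in 1 nucleus (17.4 and 0 without it; log2 3.09 ± 1.35, edgeR, adjusted p = 0.313). Tbx21, which encodes the related T-box factor T-bet, was called higher in these nuclei, at 43.9 and 65.2 CPM against 204 and 499 (log2 2.27 ± 0.48, edgeR, adjusted p = 0.00150). It was 1 of 2 genes called higher, with Id2 (2.73), of the 10 tested among 18 factors of exhaustion and memory, and Tcf7 was lower (-1.59). With either library of SAT at 2 months left out, edgeR called none of these and no other gene in CD8 nuclei.

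In regulatory nuclei 6 members passed the filter and 1.18% of 5149 genes were called (0.602% higher, 0.583% lower). Icos was at 434 and 433 CPM against 781 and 621 (log2 0.50 ± 0.31, edgeR, adjusted p = 0.514), and at 408 and 415 against 705 and 407, with overlap, without the nucleus of each library that held the most UMIs. When marker UMIs chose the nuclei, its log2 fold was 1.32 and it was called (edgeR, adjusted p = 0.00183). Tox was at 831 and 916 CPM against 1200 and 1554 (log2 0.34 ± 0.29, edgeR, adjusted p = 0.675), and Lag3 at 69.3 and 25.7 against 130 and 133 (edgeR, adjusted p = 0.431), or at 54.6 and 21.5 against 44.7 and 47.9, with overlap, without such nuclei. Pdcd1 pointed the other way, at 63.3 and 89.9 CPM against 14.5 and 44.4, on 1 UMI in each library at 24 months (log2 -2.0 ± 1.01, edgeR, adjusted p = 0.394).

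**Figure D4:**
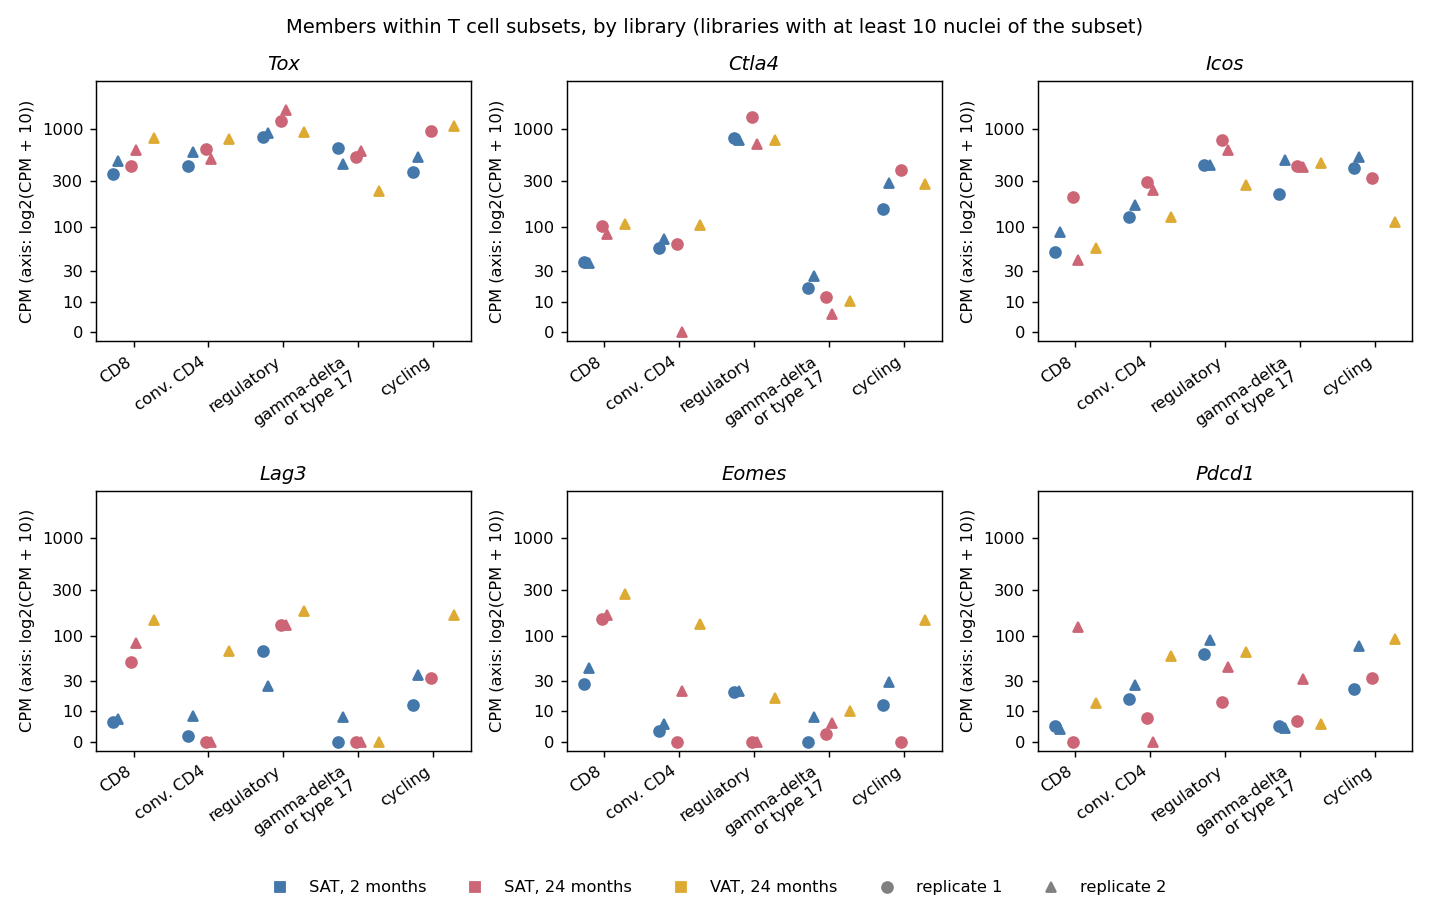
The members Tox, Ctla4, Icos, Lag3, Eomes and Pdcd1 within 5 T subsets (x), for libraries with at least 10 nuclei of the subset. The y axis is log2(CPM + 10), labelled in CPM, with colour for the group and shape for the replicate. Eomes and Lag3 in CD8 nuclei lie higher in SAT at 24 than at 2 months (Eomes 153 and 166 against 26.9 and 43.2) but were not called and rest on few nuclei (Eomes 108 and 44.2 without the top nucleus), and Eomes is at 135 CPM in conventional CD4 nuclei of VAT replicate 2.

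Genes that act with the members changed in both directions with age in T nuclei, where 7.16% of all genes tested rose and 4.55% fell. Their lists were chosen with earlier results of these data known, so the counts are descriptions. Of 9 other costimulatory receptor genes, all tested, 3 rose and 4 fell, with a median log2 fold of -0.66 against -0.02 over all genes. Cd226, the activating competitor of TIGIT, rose from 256 and 282 to 900 and 814 CPM (log2 1.73 ± 0.19, edgeR, adjusted p = 5.64e-06) and was also called higher within conventional CD4 (1.98) and gamma-delta or type 17 nuclei (1.05). Cd40lg and Tnfsf14 rose too (1.34 and 1.55), while Cd27 (-1.79), Slamf6 (-1.92), Tnfrsf4 (-1.15) and Cd28 (-0.95) fell. Of 10 other inhibitory receptors and enzymes none rose and 3 fell, namely Btla (-1.48), Cd200 (-2.48) and Cd5 (-1.56), with a median of -0.27, while Cd96, among the highest of the list, was at 0.03 and not called.

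Of 18 transcription factors of exhaustion and memory 17 were tested, 2 rose and 5 fell. Maf rose from 175 and 118 to 664 and 775 CPM (log2 2.35 ± 0.21) and Id2 by 2.61 ± 0.21, while Bach2 (-1.98), Irf4 (-1.99), Id3 (-1.92), Nr4a1 (-1.47) and Tcf7 (-0.74) fell. Of 9 signalling adaptors and phosphatases 8 were tested, Inpp5d rose (1.10) and Dgka (-1.71) and Dgkz (-0.66) fell. Of 12 ligand genes 10 were tested, none rose and Cd86 (-3.89) and Icosl (-1.41), which dendritic and B cells carry, fell in T nuclei.

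Marker lists of other states and cells moved with age as well, beside 7.16% of all genes tested called higher and 4.55% lower. These lists too were chosen with earlier results of these data known, so their counts are descriptions. Of 10 genes of naive or central memory T cells 9 fell, among them Lef1, Tcf7, Ccr7, Satb1, Dapl1, Actn1, Igfbp4 and Bach2, and Il7r rose, the list summing to 4298 and 5579 CPM against 2520 and 2041, and of 12 tested genes of effector or resident memory T cells 7 rose and none fell (1497 and 1234 CPM against 3370 and 4502), namely Cxcr6 (log2 2.28), Itgae (1.49), Itga1, Id2, S100a4, Ahnak and Cd44. Of 6 B cell genes 5 were tested and all 5, among them Cd79b, Ms4a1, Bank1 and Pax5, fell in T nuclei (260 and 324 against 74.7 and 96.9 CPM), with Cd79a at 0 in SAT 24 months replicate 2. Of 10 lymph node genes 6 were tested and Glycam1, Ccl21a, Cr2 and Fcer2a fell (146 and 182 against 28 and 77.5 CPM), while Fam3d, which was not tested, had 0 UMIs in both libraries at 24 months. The 6 macrophage genes summed to 86.8 and 98.5 against 30.3 and 67.8 CPM, of which Lyz2 fell (39.6 and 35 against 7.0 and 22.6) and F13a1 (log2 -1.45) and Mrc1 (-0.32) were not called. The 6 adipocyte genes summed to 234 and 150 against 117 and 549 CPM, of which Lep rose (4.00 and 2.28 against 7.0 and 71.0) and Adipoq (0.16) and Acsl1 (0.34) were not called. The part of these in the Icos difference was not tested. Within conventional CD4 nuclei 8 of 9 tested naive genes fell and 7 of 9 tested effector or resident genes rose, beside the Icos values above. In CD8 nuclei 4 of 10 fell and 4 of 9 rose, in regulatory nuclei 3 of 9 and 3 of 9, and in gamma-delta or type 17 nuclei 3 of 8 and 0 of 6. Shares over all genes in these subsets are given above. Dapl1, Igfbp4, Itgae, Ccl5 and Gzmk were also among the markers that named T subsets.

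The second comparison asks whether the members differ between VAT and SAT at 24 months, and it rests on VAT replicate 2, which held 563 of the 575 VAT T nuclei. Eomes was at 112 CPM there, against 12.8 and 19.4 in SAT at 24 months and 14 and 23.3 at 2 months. Lag3 was at 98.5 CPM, against 17.5 and 16.1 in SAT at 24 months. VAT replicate 1 had 0 UMIs of both in its 12 T nuclei, under a floor of 185 CPM. Both were called higher in VAT, Eomes with a log2 fold of 2.78 ± 0.49 (edgeR, adjusted p = 4.78e-06) and Lag3 with 2.39 ± 0.49 (edgeR, adjusted p = 0.000189). These are 2 of 8 members tested, beside 4.87% of 10792 genes called (2.90% higher, 1.97% lower).

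Without VAT replicate 1 the values were 2.81 (edgeR, adjusted p = 0.00230) and 2.42 (0.00340), with the lone VAT library taken to vary like the other groups. Without VAT replicate 2 the fitted values turned to -7.46 and -7.66 (edgeR, adjusted p = 0.706 and 0.691), which come from 0 UMIs and are no bound. DESeq2 called neither (adjusted p = 1.00), and Lag3 lost its call without either library of SAT at 2 months (edgeR, adjusted p = 0.0790 and 0.0748). The depot and this 1 library cannot be told apart.

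Within subsets of VAT replicate 2, Eomes was at 279 CPM in CD8 nuclei (39 UMIs, 240 without the nucleus with the most), 135 in conventional CD4 (18 UMIs, 98.9 without 1 nucleus) and 148 in cycling nuclei. The conventional CD4 level was 0 to 21.8 CPM in the 4 SAT libraries. Lag3 was at 186 CPM in regulatory, 166 in cycling, 67.7 in conventional CD4 and 150 in CD8 nuclei, the last on 21 UMIs of which 12 were in 1 nucleus (65.1 without it). In gamma-delta or type 17 nuclei Eomes was at 10.2 and Lag3 at 0 CPM. These subset values come from 1 library and were not tested. In SAT at 24 months Eomes was at 153 and 166 CPM in CD8 nuclei, and Lag3 at 130 and 133 in regulatory and 51.1 and 83.1 in CD8 nuclei, but at 0 in the conventional CD4 nuclei of both libraries. Without the nucleus with the most UMIs in each library, Lag3 was at 153 CPM in VAT replicate 2 against 44.7 and 47.9 in regulatory nuclei, and at 65.1 against 17.4 and 0 in CD8 nuclei. The mix of subsets differed too, with 26.3% gamma-delta or type 17, 18.8% CD8, 15.3% regulatory and 13.1% cycling nuclei in VAT replicate 2 against 57.1% and 60.5%, 8.02% and 9.27%, 8.59% and 6.83%, and 4.39% and 3.90% in SAT at 24 months. With the 4 main subsets weighted equally, Eomes was at 110 CPM in VAT replicate 2 against 38.8 and 48.3, and Lag3 at 101 against 45.3 and 54.1, smaller gaps than in the sums tested above, and the part of the mix in the called differences was not tested further.

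Among the other members Icos was lower, at 246 (4 UMIs) and 221 CPM in VAT against 403 and 404 in SAT at 24 months (log2 -0.93 ± 0.32, edgeR, adjusted p = 0.0687), and was called at an adjusted p of 0.0345 without VAT replicate 1 and of 0.0107 in nuclei over 1500 UMIs. Pdcd1 was at 61.5 (1 UMI) and 44.9 CPM against 9.34 and 32.3 (log2 1.43 ± 0.56, edgeR, adjusted p = 0.122). Tigit did not pass the filter, at 0 and 29.9 CPM against 8.17 and 3.23. Tox (123 and 733 against 615 and 714), Ctla4 (0 and 226 against 165 and 213), Havcr2 (0 and 29.9 against 18.7 and 16.1) and Cd160 (0 and 9.97 against 3.50 and 32.3) were not called. Both comparisons share the SAT libraries of 24 months.

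Of the related genes, Tox2, a paralogue of Tox found in exhausted and follicular helper T cells, was at 89.7 CPM in VAT replicate 2 and 5.84 and 6.46 in SAT at 24 months (log2 3.75 ± 0.60, edgeR, adjusted p = 3.38e-07), with 158 CPM in conventional CD4 nuclei. For this and the calls that follow, DESeq2 called 1 gene in place of 526 in all, and leaving out 1 library gave 4 to 596 calls. Tox2 was 1 of 2 factors called higher of 16 tested, with Nfatc1 (1.01), while Maf (-1.22) and Id2 (-1.48) were lower. Over all genes 2.90% were called higher and 1.97% lower, and these lists were chosen with earlier results of these data known. Slamf6, a receptor of progenitor-like exhausted and follicular T cells, and its adaptor Sh2d1a were higher (1.61 and 1.35) and Cd226 lower (-1.63). Entpd1 (1.45), Cd200 (2.01), Cd80 (2.51) and Cd86 (3.35) were also called higher, 2 of 9 inhibitory genes and 2 of 9 ligands tested. Of effector or resident genes Ccl5 (1.56) and Gzmk (2.31) were higher and 5 of 11, namely Itgae (-2.45), Cxcr6 (-1.95), Id2, S100a4 and Cd44, lower. Of the naive genes Lef1 (1.11) and Dapl1 (4.04) were higher and Il7r (-1.18) lower. The B cell list was at 0 and 127 CPM against 74.7 and 96.9 and the lymph node list at 0 and 52.3 against 28 and 77.5, with no call in either, and all 6 B cell genes were at 0 in VAT replicate 1. Macrophage genes summed to 246 and 73.5 CPM against 30.3 and 67.8, with no call, and of 6 adipocyte genes (1169 and 116 against 117 and 549 CPM) Plin4 was called lower (-2.06). Their part in the differences of Lag3 and Eomes was not tested.

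In macrophages, where Havcr2 is also found, no member was called in either comparison. Their Havcr2 level was 105 and 68.6 CPM in the younger and 15.4 and 52.9 in the older SAT and 0 and 53.0 in VAT (log2 -1.02 ± 0.98 with age, edgeR, adjusted p = 0.745). Of 8838 genes edgeR called 0 (0%) in both comparisons, with 961 and 350 at an unadjusted p under 0.05 and 24 and 5 called by DESeq2. In each comparison 4 members passed the filter.

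Ligands were read by class over the summed libraries, without a test and not by library. Classes were unevenly spread, as 1566 of 1961 mesothelial nuclei came from VAT replicate 2. Icosl was highest in mature dendritic nuclei, at 627 CPM, against 204 in conventional dendritic and 202 in B nuclei, as was Cd274, the gene of PD-L1, at 230 CPM, and Pvr, at 176. Cd86 was highest in conventional dendritic nuclei (461 CPM) and then in macrophages (225), and Cd80 in mature dendritic nuclei (108). Pdcd1lg2 was at 35.6 CPM at most, in regulatory T nuclei, Hmgb1 at 95.5 in cycling T nuclei, and Tnfrsf14 and Fgl1 at 9.61 and 8.85 in conventional and plasmacytoid dendritic nuclei. Outside immune cells, Nectin2, another ligand of TIGIT, was highest in mesothelial nuclei (232 CPM), Ceacam1 in epithelial nuclei (181) and Lgals9 in endothelial nuclei (113).

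**Figure D5:**
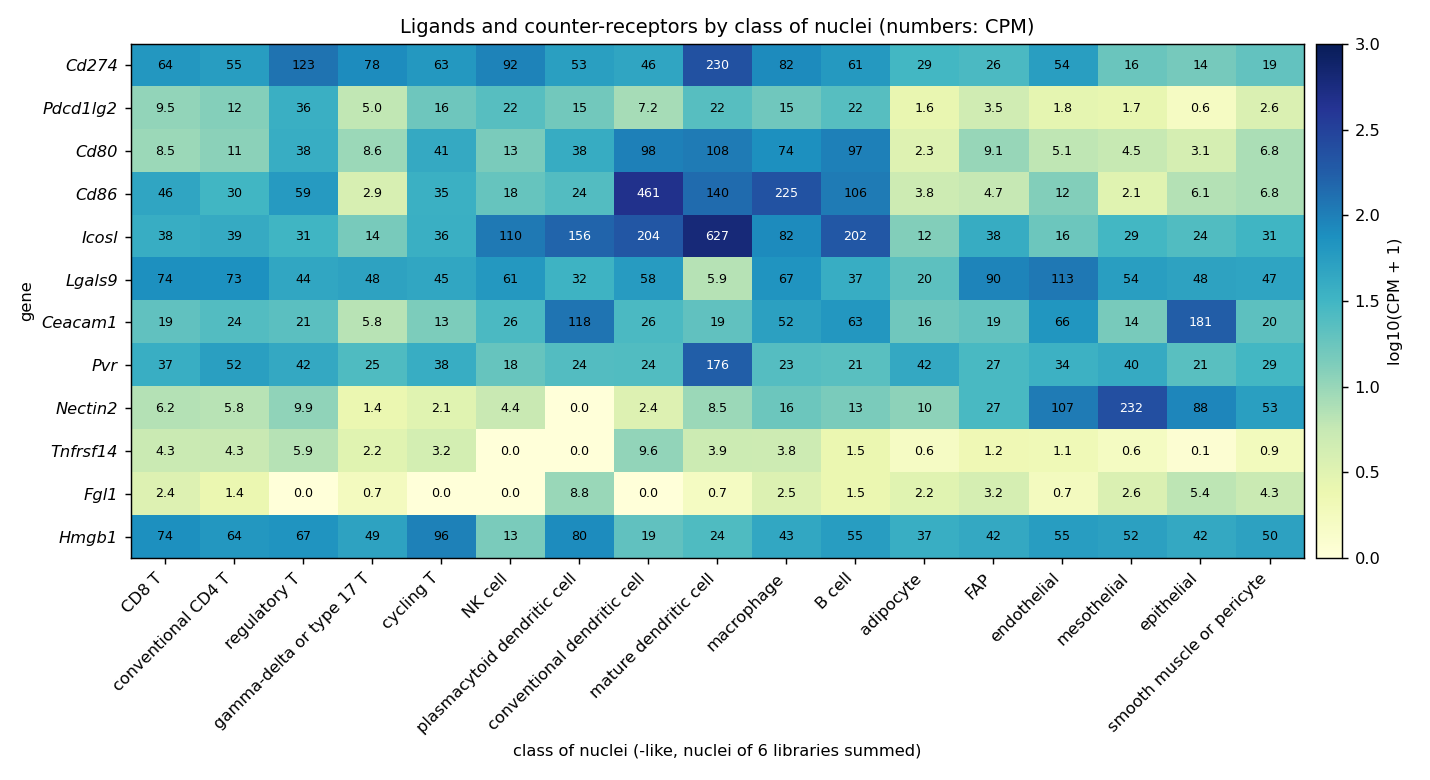
Ligand and counter-receptor genes (rows) in 17 classes of nuclei (columns), nuclei of the 6 libraries summed, with colour as log10(CPM + 1) and numbers as CPM. Icosl, Cd274 and Pvr peak in mature dendritic nuclei and Nectin2 in mesothelial nuclei.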

How the data were processed

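Nuclei were captured on a Singleron chip, and the authors aligned reads to GRCm39 with Celescope (version and annotation not given in the sources used here). What they deposited are UMI counts per gene and barcode, not normalized. Barcodes passed with more than 500 genes and 1000 UMIs and less than 15% of UMIs from mitochondrial genes. Clusters came from 1000 variable genes without the members, 30 components, Harmony by library and Leiden (2.0, then 1.0 for 5370 T and NK nuclei), named where at least 3 listed markers were over 2-fold and the mean log2 fold was at least 1, limits raised after clusters had been seen. A cluster led by lymph node stroma genes was left unnamed, also after its genes were seen. Sums of UMI counts by library and class were tested with edgeR 4.0.16 (quasi-likelihood, TMM, filterByExpr, 3 groups in 1 fit, two-sided, Benjamini-Hochberg over all genes tested, called under 0.05), after a check on simulated data, for libraries with at least 20 nuclei (5 for all T nuclei of VAT, 10 for CD8 and regulatory nuclei). The CD8 and regulatory comparisons at 10 nuclei and the gamma-delta or type 17 comparison were added after seeing the data. The members and all gene lists were chosen with earlier results of these data known. All members, listed genes called in T nuclei or highest in their list, and the 3 most alike genes of each member are named. Alternatives were DESeq2 1.42.0, no filter, deeper nuclei, doublet removal, marker UMIs as class, a replicate block, fewer libraries and each library left out. Intervals are 95% Poisson and cover counting error only. Tools were Python 3.11.15, scanpy 1.11.5, leidenalg 0.10.2 and R 4.3.3.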

Additional observations from a re-analysis of the deposited data

How the results depend on the processing

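Of 562 values of the members under an alternative, 496 kept their direction and side of the threshold, 5 lost a call, 7 gained one and 54 changed sign, of which only Lag3 and Eomes between depots had been called. In T nuclei between depots Ctla4 changed sign with DESeq2 (-0.23), without the filter (-0.04), with the replicate block (-0.09) and with marker UMIs (-0.22), Tox at 20 nuclei per library (0.06) and over 1500 UMIs (0.42), and Cd160 over 1500 UMIs (1.38). With age, marker UMIs turned Cd160 in T nuclei (0.31), Icos in conventional CD4 (-0.21), Ctla4 in regulatory nuclei (-0.22) and Tox in macrophages (6.59). Nuclei over 1500 UMIs turned Ctla4 in T nuclei (-0.26), Tox and Icos in CD8 (-1.38 and -6.77) and Tox in gamma-delta or type 17 nuclei (-0.05), and no filter turned Tox in conventional CD4 (-0.04) and CD8 nuclei (-0.16). Tox in macrophages between depots turned with DESeq2 (-0.06), marker UMIs (-1.42), the replicate block (-0.04) and the crossed one (-0.17).

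Leaving out 1 library at a time spanned 0 for more. With age in T nuclei the ranges were -1.30 to 0.37 for Pdcd1, -0.47 to 0.97 for Tigit, -2.64 to 0.43 for Cd160 and -0.59 to 0.18 for Eomes. Between depots, where VAT replicate 1 alone, with 0 UMIs of these genes except 2 of Tox, set the low ends, they were -7.66 to 2.48 for Lag3, -7.46 to 2.89 for Eomes, -3.16 to 0.06 for Tox, -11.08 to 0.20 for Ctla4, -7.72 to 0.80 for Havcr2 and -7.17 to 1.32 for Cd160. In conventional CD4 nuclei they were -0.25 to 0.33 for Tox and -4.09 to 2.17 for Eomes, in CD8 -0.03 to 0.41 for Tox, -1.29 to 1.44 for Icos and -0.96 to 1.86 for Cd160, in regulatory -0.49 to 0.69 for Ctla4 and in gamma-delta or type 17 nuclei -0.18 to 0.33 for Tox and -0.19 to 0.95 for Icos. In macrophages they were -2.73 to 0.43 for Lag3 and -1.87 to 0.11 for Icos with age, and -2.59 to 1.09 for Tox, -6.00 to 0.15 for Lag3 and -7.08 to 0.69 for Havcr2 between depots.

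Counts of called genes moved more, and the cause was not tested. With DESeq2 they were 726 in place of 1448 for T nuclei with age, 1 in place of 526 for the depots, 154 in place of 584 in conventional CD4, 22 in place of 54 in CD8, 10 in place of 61 in regulatory and 12 in place of 110 in gamma-delta or type 17 nuclei, and 24 and 5 in place of 0 in macrophages with age and between depots. Without the filter they were 73 in gamma-delta or type 17 nuclei and 295 and 36 in macrophages. With only both groups compared in the fit they were 103 between depots, 64 in gamma-delta or type 17 nuclei and 278 in macrophages with age. Nuclei over 1500 UMIs gave 106 in regulatory and 61 in gamma-delta or type 17 nuclei, and marker UMIs as the class gave 244 in conventional CD4, 133 in CD8, 238 in regulatory and 72 in gamma-delta or type 17 nuclei.

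Leaving out 1 library at a time gave 652 to 1592 calls for T nuclei with age, 4 to 596 between depots, 132 to 781 in conventional CD4, 0 to 155 in CD8, 6 to 55 in regulatory, 14 to 102 in gamma-delta or type 17 nuclei and 0 to 342 and 0 to 58 in macrophages. A group left with 1 library is taken to vary like the others. Whether the replicate numbers of the labels pair libraries is not known. Deviations of same-numbered libraries correlated at -0.06 to 0.03 in T nuclei and -0.24 to 0.01 in macrophages. This cannot decide it, with 2 libraries per group and only 12 T nuclei in VAT replicate 1. With the replicate block the counts were 174 between depots, 346 in conventional CD4, 15 in CD8, 36 in regulatory and 70 in gamma-delta or type 17 nuclei, against 1517 for T nuclei with age. With depots of macrophages paired crosswise 5 genes were called, an alternative added after seeing the data, as was removing the 10% of nuclei with the highest Scrublet scores, which gave 1550 and 486 in T nuclei. The planned CD8 and regulatory comparisons at 20 nuclei per library were not run, because 1 library held too few. Depth limits the sparse members most, since Tigit, Havcr2 and Cd160 had 59, 104 and 161 UMIs in all T nuclei.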

Other observations

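2 T clusters matched no subset and are given by their leading genes. The cluster led by Egr3, Nr4a1, Egr1 and Cd69, genes switched on early after stimulation of the antigen receptor, held 125 nuclei, of which 41 and 71 came from SAT at 2 months, 3 and 1 from SAT at 24 months and 9 from VAT replicate 2. Its levels were 122 CPM for Ctla4, 255 for Icos, 736 for Tox, 46.4 for Cd160 and 34.8 for Pdcd1, with 0 UMIs of Lag3 and Havcr2. The other cluster, led by Gm10800 and Gm10801, held 239 nuclei, with 51.4 CPM of Ctla4, 106 of Icos and 463 of Tox. In the unnamed T nuclei of SAT 24 months replicate 2 Icos was at 1645 CPM, on 19 UMIs of which 15 were in 1 nucleus.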
